A study of Mus musculus with 91 samples.

Results

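Cyp3a11, Cyp3a13, Cyp3a25 and Cyp3a44 are 4 mouse genes of the cytochrome P450 3A subfamily, and their RNA was followed in the livers of male mice given 8 chemicals. Each gene was taken by its symbol in the platform annotation, and each had exactly 1 probe set carrying that symbol alone: 1416809_at for Cyp3a11, 1419523_at for Cyp3a13, 1424973_at for Cyp3a25 and 1426064_at for Cyp3a44. They are 4 of the 18193 genes tested and 4 of the 45037 probe sets deposited. RNA from 91 livers, 1 liver per array, was measured on Affymetrix expression arrays in 19 groups, and values are log2 signals, so that a difference of 1 is a doubling.

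All mice were adult males on a C57BL/6J background, with ages in weeks not given in the sources used here. The mice labelled C57BL/hCAR/hPXR, 5 treated and 5 control, belong to a strain made to carry the human nuclear receptors CAR and PXR in place of the mouse ones, and all others are labelled C57BL. Treated hCAR/hPXR and C57BL mice received CITCO at 10 mg/kg by daily intraperitoneal injection. Phenobarbital was given to C57BL mice at 0.05% (w/v) in drinking water for 28 days or 56 days, and every other treatment lasted 28 days. By gavage, C57BL mice received cyproterone acetate at 160 mg/kg, 1,4-dichlorobenzene at 600 mg/kg, Wy-14643 at 100 mg/kg or pioglitazone at 100 mg/kg. Piperonyl butoxide was injected intraperitoneally at 600 mg/kg, and methapyrilene was mixed into food at 1000 ppm. The control of CITCO in hCAR/hPXR mice was a CMC group of the same strain. The C57BL controls were CMC cohorts named Co4 for CITCO, Co2 for piperonyl butoxide, Co1 for Wy-14643, Co5 for pioglitazone and Co3 for methapyrilene, corn oil for both cyproterone acetate and 1,4-dichlorobenzene, and water of the same day for phenobarbital. Groups held 5 mice, apart from piperonyl butoxide, Co1, Co3 and Co5 with 4 each. Methapyrilene in food was thus set against a cohort labelled CMC, and the titles of all 5 phenobarbital livers of day 28 end in "(2)", whose meaning is not given.

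P450 enzymes of the 3A subfamily sit in the membrane of the endoplasmic reticulum of hepatocytes and oxidise many drugs, steroid hormones and bile acids, with electrons passed on by P450 oxidoreductase and cytochrome b5. Their genes are classic targets of PXR (Nr1i2), a nuclear receptor that binds drugs and steroids, and to a lesser extent of CAR (Nr1i3), both of which bind DNA as partners of RXR at pairs of half-sites related to AGGTCA. Cyp3a11 is the main inducible hepatic Cyp3a of the mouse and the usual readout of PXR activity. Cyp3a25 is a further adult hepatic form, Cyp3a13 is expressed in liver and intestine, and Cyp3a44, with its close relatives Cyp3a41 and Cyp3a16, is known as a female-predominant form in adult mouse liver.

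The promoters are shown because PXR and CAR act through half-sites of this kind and because the windows show how far the 4 genes differ. All lie on the minus strand of chromosome 5 in the RefSeq annotation of GRCm38.p6, and each window runs from 250 bases before to 50 bases after the annotated start, at chr5:145879805-145880104 for Cyp3a11, chr5:137921570-137921869 for Cyp3a13, chr5:146009569-146009868 for Cyp3a25 and chr5:145805825-145806124 for Cyp3a44. Sequences read 5′ to 3′ along the gene, and capitals mark AGGTCA or AGTTCA on either strand, so that TGACCT and TGAACT are the same half-sites read on the opposite strand.
Cyp3a11: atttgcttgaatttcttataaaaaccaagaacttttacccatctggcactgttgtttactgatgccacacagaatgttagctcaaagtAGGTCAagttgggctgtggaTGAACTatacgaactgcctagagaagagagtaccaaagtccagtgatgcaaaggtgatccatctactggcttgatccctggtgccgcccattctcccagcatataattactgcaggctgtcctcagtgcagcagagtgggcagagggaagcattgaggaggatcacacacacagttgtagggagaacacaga
Cyp3a13: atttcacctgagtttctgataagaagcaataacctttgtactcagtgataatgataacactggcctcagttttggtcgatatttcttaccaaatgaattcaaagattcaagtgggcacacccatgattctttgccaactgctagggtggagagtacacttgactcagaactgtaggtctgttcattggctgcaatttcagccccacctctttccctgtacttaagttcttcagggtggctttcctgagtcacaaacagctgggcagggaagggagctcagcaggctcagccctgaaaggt
Cyp3a25: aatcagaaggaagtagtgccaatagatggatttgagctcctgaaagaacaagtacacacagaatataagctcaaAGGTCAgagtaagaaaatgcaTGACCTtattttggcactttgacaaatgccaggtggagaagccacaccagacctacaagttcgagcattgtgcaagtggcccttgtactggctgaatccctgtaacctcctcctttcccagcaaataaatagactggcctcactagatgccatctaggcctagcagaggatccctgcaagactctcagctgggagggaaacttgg
Cyp3a44: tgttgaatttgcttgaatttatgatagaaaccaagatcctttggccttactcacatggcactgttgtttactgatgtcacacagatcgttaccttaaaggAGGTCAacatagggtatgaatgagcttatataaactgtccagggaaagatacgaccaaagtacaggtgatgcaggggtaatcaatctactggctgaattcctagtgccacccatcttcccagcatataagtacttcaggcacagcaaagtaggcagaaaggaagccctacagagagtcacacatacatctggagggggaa
The window of Cyp3a11 holds AGGTCA from −162 to −157 and AGTTCA on the opposite strand from −142 to −137, counted from the start site. That of Cyp3a25 holds AGGTCA at −176 to −171 and again, on the opposite strand, at −155 to −150, and that of Cyp3a44 holds a single AGGTCA at −150 to −145. No half-site of these letters is in the window of Cyp3a13. Among 32851 promoter windows of the same length, 16.3% hold AGGTCA and 14% hold AGTTCA on either strand, and the motifs do not overlap one another in the 4 windows. None of the 4 windows holds a direct repeat of these half-sites spaced by 1, 3 or 4 bases or an everted repeat spaced by 6, arrangements held by 0.0822%, 0.0122%, 0.0274% and 0.00913% of all windows in that order. TATAAA is present at −234 in Cyp3a11 and at −122 in Cyp3a44, and 13.6% of all windows hold it. These matches describe letters and not binding.

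Cyp3a11, Cyp3a25 and Cyp3a44 are near neighbours: no gene lies between Cyp3a11 and Cyp3a25 in the annotation, and 2 genes, none of them protein-coding, lie between Cyp3a44 and Cyp3a11. Cyp3a13 lies apart on the same chromosome, with 33 annotated genes between it and the next Cyp3a locus, the pseudogene Cyp3a61-ps1. A further 174 annotated genes lie between that pseudogene and Cyp3a57, beyond which the others of the 4 genes lie. The promoter windows of Cyp3a11 and Cyp3a44 are identical in 74.0% of alignment columns, counting gaps inside the alignment. This is more than any other pair of the 4 genes, whose identities run from 51.8% to 56.2%. Unrelated windows were not aligned, so the identity to be had by chance is not known. Cyp3a44 is closer still to Cyp3a16, at 95.3%, to Cyp3a41a, at 93.7%, and to Cyp3a41b, at 93.0%. Cyp3a25 is 96.3% identical to Cyp3a59 and 90.3% to Cyp3a57. Probe sets of genes this close may share signal, so that the values of Cyp3a44 and Cyp3a25 are uncertain as values of single genes. Probe sequences were not compared, and identity of promoters does not give that of probes.

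The arrays carry liver RNA by their markers: 16 hepatocyte markers averaged 13.21 to 14.02 over the 91 arrays. Nr1i2 averaged 4.02 ± 0.477 in hCAR/hPXR controls and 7.51 ± 0.483 in C57BL Co4 controls (SD, n = 5 each), and Nr1i3 averaged 5.86 and 9.33 in the same groups, with adjusted p-values of 8.71e-28 and 2.27e-21. A pair of labels is less secure. Livers labelled pioglitazone, an activator of PPARγ, did not differ past the threshold in the PPARγ-responsive lipid genes Fabp4 (−0.33 ± 0.54), Cidea (−0.05 ± 0.557), Cidec (−0.60 ± 0.44), Cd36 (−0.42 ± 0.34) or Plin4 (−0.89 ± 0.387), given as log2 fold change ± SE. Livers labelled methapyrilene had all 5 higher: Fabp4 by 3.37 ± 0.54, Cidea by 3.11 ± 0.557, Cidec by 2.55 ± 0.44, Cd36 by 1.76 ± 0.34 and Plin4 by 1.70 ± 0.387, with adjusted p-values from 0.000127 to 0.0252. All 5 livers exceeded every control in Cd36, and 4 of 5 did in Fabp4, Cidea, Cidec and Plin4, with 1 below every control in Cidec. The genes are not particular to PPARγ. With Wy-14643, an agonist of PPARα, Fabp4 rose by 5.14 ± 0.54, Cidea by 5.03 ± 0.557, Cd36 by 2.69 ± 0.34 and Cidec by 1.41 ± 0.44, while Plin4 (0.72 ± 0.387) did not pass. Cyp2b10, the usual CAR target, was higher by 6.06 ± 0.495 in livers labelled pioglitazone (adjusted p = 1.17e-15) and differed by −0.36 ± 0.495 in livers labelled methapyrilene, which did not pass. These genes were chosen after their values had been seen. The 2 groups keep their labels below, and any direction drawn for either rests on a label that these genes put in doubt.

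Cyp3a11 was measured close to the top of the scale. Its values ran from 14.26 to 14.98 with a median of 14.66, which placed its probe set between 3rd and 57th of 45037 on every array (median 20th) and 0.23 to 0.95 below the brightest probe set. Its spread between livers of a group was small, with a pooled SD of 0.074, and 0.154% of genes tested had a smaller one. The median gene had an SD of 0.201, and the 48 genes with a mean above 14 had a median SD of 0.0925. Signals near the top of an array can rise less than the RNA does, so the folds of Cyp3a11 may understate a change, by how much is not known, and its small SE goes with its small range. Cyp3a25 lay lower, from 12.79 to 14.33 and 50th to 422nd, and Cyp3a13 lower again, from 9.65 to 12.73. Cyp3a44 gave a dim signal of 4.03 to 6.55, where folds can be understated as well. A rank places the probe set on the array and does not compare the amounts of RNA of different genes.

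**Figure D1:**
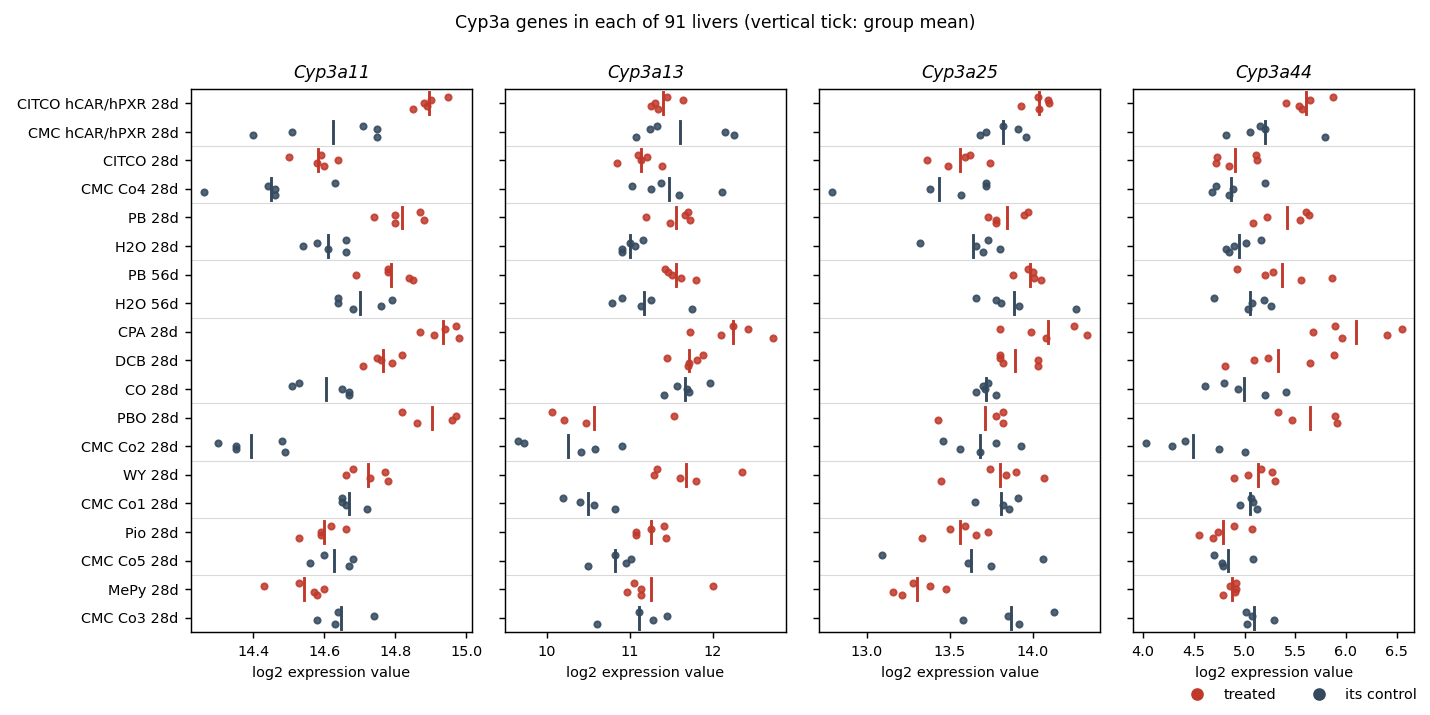
Log2 expression values of Cyp3a11, Cyp3a13, Cyp3a25 and Cyp3a44 in each of 91 livers, with groups down the page, each treated group (red) above its control (dark) and a vertical tick at the group mean. The x axes differ between genes: all Cyp3a11 values lie between 14.26 and 14.98, while Cyp3a44 spans 4.03 to 6.55, with the highest group mean, 6.10, in cyproterone acetate livers.

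Over the 10 treated groups and 4 genes, 9 of 40 differences passed an adjusted p of 0.05, 8 of them higher in treated livers and 1 lower. Over all genes the share called in these 10 comparisons ran from 0.0055% to 10.6%, and it is given with each treatment below. Where treated and control livers did not overlap this is stated, but how many of all genes separate so was not counted. In groups this small genes can separate by chance, so a lack of overlap describes the values and does not stand in for a call. Cyp3a11 rose in 4 treatments, Cyp3a44 in 2, Cyp3a13 in 1 and Cyp3a25 in 1, and Cyp3a25 fell in 1. In bulk liver, a change in the share of hepatocytes and a change of RNA per hepatocyte cannot be told apart.

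Piperonyl butoxide, an insecticide synergist that inhibits P450 enzymes, gave the widest change of Cyp3a11. Values were 14.82, 14.97, 14.96 and 14.86 in the 4 treated livers, against 14.48, 14.30, 14.35, 14.35 and 14.49 in the Co2 controls. Treated and control livers did not overlap. Cyp3a11 was 1.42-fold higher (log2 fold change 0.51 ± 0.0545, adjusted p = 1.22e-10), in a comparison where 0.808% of all genes were called. The Co2 controls had the lowest mean of Cyp3a11 of all 19 groups, at 14.40, while the other 7 C57BL control groups averaged from 14.45 to 14.70. All 4 treated livers were nevertheless above the highest of the 37 C57BL control livers, at 14.79.

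The same livers had more Cyp3a44 signal. It read 5.33, 5.89, 5.47 and 5.91 after piperonyl butoxide, against 4.41, 4.03, 4.28, 4.75 and 5.00 in Co2, a 2.23-fold rise (1.16 ± 0.174, adjusted p = 7.21e-06) without overlap. Co2 was again the lowest of the 19 groups, and 3 of the 4 treated livers exceeded the highest C57BL control liver, at 5.41. Fitted with only the 2 groups of the comparison, Cyp3a44 had an adjusted p of 0.0563. Cyp3a13 and Cyp3a25 did not pass, at 0.31 ± 0.226 and 0.03 ± 0.128. The mean of 16 hepatocyte markers ran from 13.21 to 13.45 after piperonyl butoxide and from 13.32 to 13.74 in Co2, and that of 28 acute phase genes from 10.93 to 12.43 and from 10.91 to 11.64, and their part in these differences was not tested.

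Cyproterone acetate, a steroidal antiandrogen known as an activator of rodent PXR, was the treatment with most calls: Cyp3a11, Cyp3a25 and Cyp3a44 rose, where 5.32% of all genes were called. Cyp3a11 read 14.97, 14.94, 14.87, 14.91 and 14.98 after treatment, against 14.53, 14.51, 14.65, 14.67 and 14.67 with corn oil. No treated liver overlapped with a control, and the rise was 1.26-fold (0.33 ± 0.0514, adjusted p = 3.72e-06). The treated livers stood 3rd to 7th of all probe sets.

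Cyp3a44 had a clearer range. Its values were 5.89, 6.55, 5.68, 6.41 and 5.96 after cyproterone acetate, against 4.80, 4.61, 4.94, 5.41 and 5.20 with corn oil. All 5 were above every one of the 37 C57BL control livers, and the rise was 2.15-fold (1.10 ± 0.164, adjusted p = 1.13e-06). Cyp3a25 read 14.25, 13.80, 13.99, 14.33 and 14.08, against 13.73, 13.70, 13.71, 13.66 and 13.78. These groups did not overlap either, but the rise of 1.3-fold (0.38 ± 0.12, adjusted p = 0.0482) lay at the threshold. It was lost, at adjusted p-values from 0.0619 to 0.144, without cyproterone acetate replicate 1, 4 or 5 or without any 1 of the 5 corn oil livers, and it had an adjusted p of 0.056 with the replicate number as a block. Cyp3a13 differed by 0.57 ± 0.213 (adjusted p = 0.104). It passed only without replicate 3, at 0.70 with an adjusted p of 0.0466. Of 28 acute phase genes 6 rose with cyproterone acetate, among them Lcn2, where 5.32% of all genes were called. The mean of the 28 ran from 10.75 to 12.73 in treated livers and from 10.47 to 11.50 in controls. Their part in the Cyp3a differences was not tested.

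Of the close relatives of Cyp3a44, 1 further probe set was called and Cyp3a16 was not. A probe set annotated to both Cyp3a41b and Cyp3a41a, outside the 18193 genes because it has 2 symbols, averaged 7.33 ± 0.487 after cyproterone acetate and 6.29 ± 0.287 with corn oil (SD, n = 5 each). It rose by 1.04 ± 0.138, with an adjusted p of 8.76e-08 over all probe sets. After piperonyl butoxide it averaged 6.69 ± 0.17 (n = 4), against 5.76 ± 0.169 in Co2 (n = 5), a rise of 0.93 ± 0.146 (adjusted p = 4.34e-05), and no other treatment passed. Cyp3a16, the form expressed in fetal liver, stayed between 3.08 and 3.88 on all 91 arrays and was called in none of the 10 treatments. Of 16 measured female-biased liver genes, 2 rose and 2 fell after cyproterone acetate, with a median of 0.06 beside 0.02 over all genes, and none was called after piperonyl butoxide. The shares of all genes called were 5.32% and 0.808% in that order.

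1,4-Dichlorobenzene, a chlorinated benzene, shared the corn oil controls with cyproterone acetate. Cyp3a11 read 14.82, 14.75, 14.76, 14.79 and 14.71 after it, against 14.53, 14.51, 14.65, 14.67 and 14.67. All 5 treated livers lay above all controls, but 0.16 ± 0.0514 did not pass (adjusted p = 0.0565), and it did so without replicate 5 (0.18, adjusted p = 0.0498). Cyp3a44 differed by 0.34 ± 0.164, Cyp3a25 by 0.18 ± 0.12 and Cyp3a13 by 0.04 ± 0.213. None of the 4 was among the 3.83% of genes called. Set directly against 1,4-dichlorobenzene, cyproterone acetate livers had more Cyp3a44, with a mean of 6.10 ± 0.368 against 5.33 ± 0.433 (SD, n = 5 each), a difference of 0.76 ± 0.164 (adjusted p = 0.00107), in a comparison with 4.11% of genes called. Cyp3a11 was higher by 0.17 ± 0.0514 (adjusted p = 0.0431), a call that was lost without any of 8 of the 10 livers, namely cyproterone acetate replicates 1, 2, 4 and 5 and 1,4-dichlorobenzene replicates 2 to 5. Fitted on these 10 livers alone, neither gene passed, at adjusted p-values of 0.286 for Cyp3a11 and 0.141 for Cyp3a44. The doses differed, at 160 mg/kg for cyproterone acetate and 600 mg/kg for 1,4-dichlorobenzene. Of 28 acute phase genes, 9 were higher with cyproterone acetate than with 1,4-dichlorobenzene and none was lower, with a median of 0.69. Against corn oil, 5 of the 28 and 5 of 16 hepatocyte markers fell with 1,4-dichlorobenzene and none rose. Their part in the Cyp3a differences was not tested.

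Phenobarbital, the classic indirect activator of CAR, raised Cyp3a11 at day 28. Values were 14.87, 14.80, 14.74, 14.88 and 14.80 with phenobarbital, against 14.66, 14.58, 14.54, 14.61 and 14.66 with water. The groups did not overlap, and the rise was 1.15-fold (0.21 ± 0.0514, adjusted p = 0.0221), with 0.967% of genes called. It did not pass without phenobarbital replicate 1 or 4 or water replicate 2 or 3, at adjusted p-values from 0.0692 to 0.0868, nor after the array medians were subtracted or the values were quantile normalised again. At day 56 the values were 14.78, 14.78, 14.69, 14.84 and 14.85, against 14.64, 14.79, 14.64, 14.76 and 14.68, and the groups overlapped. The difference of 0.09 ± 0.0514 did not pass (adjusted p = 0.84), and 0.566% of genes did. The responses at the 2 times were not told apart: day 56 minus day 28 gave −0.12 ± 0.0727, with a 95% interval of −0.27 to 0.02 and an adjusted p of 0.999, and 0% of genes passed.

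The other 3 genes were not called with phenobarbital. Cyp3a44 differed by 0.47 ± 0.164 at day 28 and by 0.32 ± 0.164 at day 56, Cyp3a25 by 0.20 ± 0.12 and 0.10 ± 0.12, and Cyp3a13 by 0.54 ± 0.213 and 0.40 ± 0.213. Cyp3a13 was above all 5 water controls in all 5 livers of day 28, with 11.20 to 11.73 against 10.90 to 11.16, and it passed with only those groups in the fit (adjusted p = 0.0096), but not with the spread shared over all 19 groups (adjusted p = 0.326).

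CITCO activates human CAR, and both strains received it. In hCAR/hPXR mice Cyp3a11 read 14.95, 14.90, 14.88, 14.89 and 14.85 with CITCO, against 14.71, 14.75, 14.51, 14.40 and 14.75 with CMC. The groups did not overlap, the rise was 1.2-fold (0.27 ± 0.0514, adjusted p = 0.00392), and 0.0989% of genes were called. The SD was 0.0381 in treated livers and 0.157 in control livers, and the call was lost without control replicate 3 (0.24, adjusted p = 0.0585) or 4 (0.21, adjusted p = 0.125), the 2 lowest. Those 2 livers also had the highest means of 28 acute phase genes in their group, 0.414 and 0.66 above the group mean on the log2 scale. The acute phase mean ran from 11.24 to 11.64 in CITCO livers and from 11.97 to 12.99 in CMC livers of this strain, and its part in the difference was not tested. Fitted on those 10 livers alone, it had an adjusted p of 0.307.

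In C57BL mice Cyp3a11 read 14.59, 14.50, 14.64, 14.58 and 14.60 with CITCO, against 14.63, 14.44, 14.46, 14.26 and 14.46 in Co4. The groups overlapped and 0.13 ± 0.0514 did not pass (adjusted p = 0.91), with 0.0055% of genes called. The response in hCAR/hPXR mice minus that in C57BL mice was 0.14 ± 0.0727, from −0.01 to 0.28 (adjusted p = 1, with 0.0055% of genes called), so these data do not show that the strains differ in the Cyp3a11 response. Cyp3a44 differed by 0.41 ± 0.164 in hCAR/hPXR mice and by 0.04 ± 0.164 in C57BL mice, Cyp3a25 by 0.22 ± 0.12 and 0.12 ± 0.12, and Cyp3a13 by −0.21 ± 0.213 and −0.34 ± 0.213, and none passed.

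**Figure D2:**
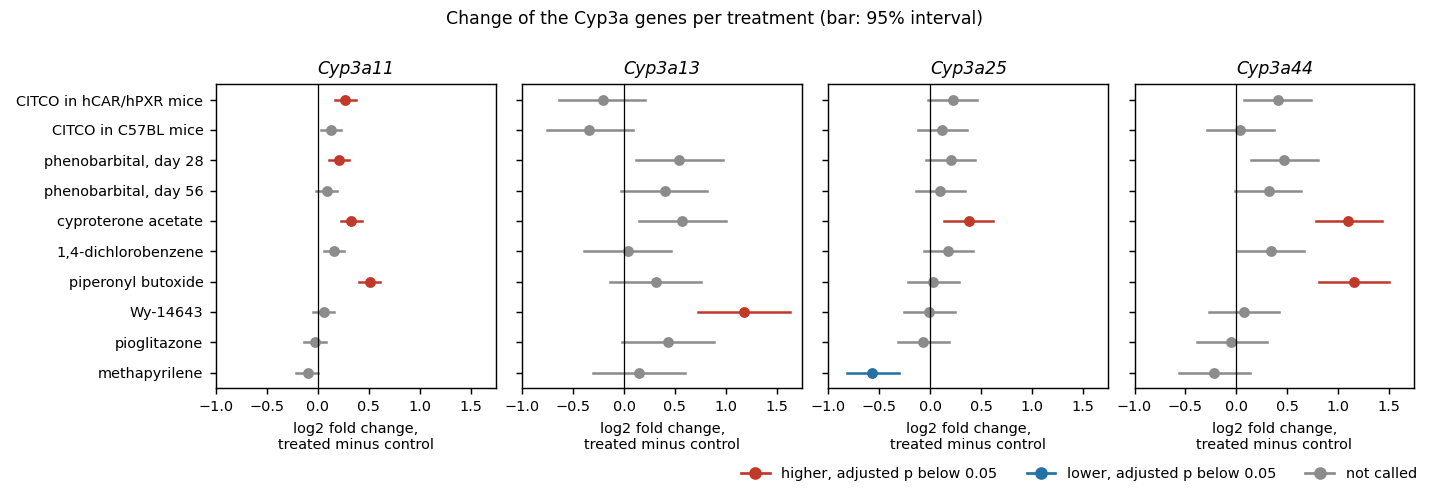
Log2 fold change of each Cyp3a gene, treated minus its control, in the 10 treated groups, with 95% intervals from the fit; red is higher and blue is lower at an adjusted p below 0.05, grey is not called, and treatments carry the names in the labels. The largest Cyp3a11 change is 0.51, with narrow intervals, while the calls of Cyp3a44 (cyproterone acetate, piperonyl butoxide) and Cyp3a13 (Wy-14643) lie above 1.

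Wy-14643, an agonist of PPARα, was the only treatment with a call for Cyp3a13. Values were 11.33, 12.35, 11.29, 11.61 and 11.80 after Wy-14643, against 10.20, 10.40, 10.57 and 10.82 in Co1, without overlap. The rise was 2.26-fold (1.18 ± 0.226, adjusted p = 0.000122), in a comparison in which 10.6% of genes were called, and it held without any 1 liver. Co1 was low beside other controls, with a mean of 10.50 where the 8 C57BL control groups averaged 10.26 to 11.67, and only 1 of the 5 treated livers was above the highest C57BL control liver, at 12.11. The mean was 11.68 with Wy-14643 and 11.67 in the corn oil controls of the other treatments. Acute phase genes moved in these livers too: 6 of 28 rose and none fell, and their mean ran from 9.98 to 12.52 with Wy-14643 and from 10.02 to 10.44 in Co1. Of 12 macrophage markers 7 rose, with means of 7.27 to 8.38 against 6.61 to 7.18. Their part in the difference was not tested.

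Cyp3a11 read 14.68, 14.77, 14.66, 14.73 and 14.78 after Wy-14643, against 14.65, 14.65, 14.66 and 14.72, and 0.06 ± 0.0545 did not pass (adjusted p = 0.558). Cyp3a25 differed by −0.01 ± 0.128 and Cyp3a44 by 0.08 ± 0.174. Cyp3a44 is a female-predominant form. Of 16 female-biased genes, 5 rose with Wy-14643, with the largest changes in Cyp2b9, Abcd2, Acot3 and Hao2, and 11 were not called. Of 20 male-biased genes 16 fell, among them Hsd3b5, where 10.6% of all genes were called. The causes were not tested.

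Livers labelled methapyrilene had the only fall. Cyp3a25 read 13.28, 13.38, 13.48, 13.16 and 13.21 in them, against 14.13, 13.85, 13.58 and 13.92 in Co3. All 5 were below all 4 controls, at 0.675 of the control level (−0.57 ± 0.128, adjusted p = 0.023), with 0.181% of genes called. The mean of 13.30 was the lowest of the 19 groups, but no liver was below the lowest C57BL control liver, at 12.79 in Co4. The call was lost without methapyrilene replicate 4 or 5 or Co3 replicate 1, 2 or 4, at adjusted p-values from 0.055 to 0.284, and in a fit of these 9 livers alone (adjusted p = 0.143). Cyp3a44 was also lower than every control in all 5 livers, at 4.79 to 4.92 against 5.01 to 5.29, but −0.22 ± 0.174 did not pass (adjusted p = 0.88). Cyp3a11 differed by −0.10 ± 0.0545 and Cyp3a13 by 0.15 ± 0.226, neither passing. The acute phase mean ran from 10.48 to 12.29 in these livers and from 10.16 to 10.91 in Co3, and that of 12 macrophage markers from 7.38 to 8.87 and from 6.63 to 7.74, and their part in the fall of Cyp3a25 was not tested.

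In livers labelled pioglitazone none of the 4 genes was called, and 0.022% of all genes were. Cyp3a11 read 14.62, 14.66, 14.59, 14.59 and 14.53, against 14.60, 14.68, 14.56 and 14.67 in Co5, a difference of −0.03 ± 0.0545 (adjusted p = 0.954). The 95% interval of that difference ran from −0.14 to 0.08. Cyp2b10 in the same livers was higher by 6.06, as given above. Cyp3a25 differed by −0.07 ± 0.128 and Cyp3a44 by −0.05 ± 0.174. Cyp3a13 was higher than all controls in all 5 livers, 11.08 to 11.44 against 10.49 to 11.01, but 0.43 ± 0.226 did not pass. The response of Cyp3a13 to Wy-14643 minus that in livers labelled pioglitazone was 0.75 ± 0.32 and did not pass (adjusted p = 0.197), in a comparison with 3.02% of genes called.

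Between untreated groups, Cyp3a13 varied most. It averaged 11.61 ± 0.554 (SD, n = 5) in hCAR/hPXR controls, against 10.83 over the 22 C57BL livers of the 5 CMC cohorts, higher by 0.78 ± 0.167 (adjusted p = 0.000926), with 8.67% of genes called. Against Co4 alone, the C57BL cohort of the same compound, the difference was 0.14 ± 0.213 (adjusted p = 0.968), with 0.126% called. Strain and cohort cannot be told apart in either comparison, and Co1, Co3 and Co5 served compounds that were not injected. The acute phase mean was 11.97 to 12.99 in hCAR/hPXR controls and 11.78 to 12.83 in Co4, and averages of the other CMC cohorts were 10.17, 11.33, 10.46 and 10.64 for Co1, Co2, Co3 and Co5. Against all CMC cohorts 18 of 28 acute phase genes and 7 of 12 macrophage markers were higher and none was lower, with medians of 0.67 and 1.04, while against Co4 none of either list was called. Their part in the Cyp3a13 difference was not tested. Cyp3a11 differed from Co4 by 0.18 ± 0.0514 (adjusted p = 0.213) and passed without hCAR/hPXR control replicate 4 (0.23, adjusted p = 0.0217). Cyp3a25 differed by 0.38 ± 0.12 and Cyp3a44 by 0.33 ± 0.164, neither passing. No gene of the 4 differed between water livers of day 56 and day 28, with Cyp3a25 at 0.24 ± 0.12 and Cyp3a11 at 0.09 ± 0.0514, where 0.033% of genes were called.

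All 4 genes differed among the 5 C57BL CMC cohorts by the moderated F test, where 33.2% of all genes did. Co2 and Co4 served injected compounds, Co1 and Co5 compounds given by gavage, and Co3 a compound in food. Cyp3a11 averaged 14.40 in Co2 and 14.45 in Co4, and 14.67, 14.65 and 14.63 in Co1, Co3 and Co5. Cyp3a13 did not split that way, being lowest in Co2 (10.26) and highest in Co4 (11.47). Cohort and route cannot be told apart, and the part of route was not tested. The widest difference between cohort means was 1.22 for Cyp3a13 (adjusted p = 1.81e-05), 0.27 for Cyp3a11 (adjusted p = 5.35e-06), 0.60 for Cyp3a44 (adjusted p = 0.0219) and 0.43 for Cyp3a25 (adjusted p = 0.0346). For Cyp3a11 that exceeds the change after phenobarbital and is as wide as the rise with CITCO in hCAR/hPXR mice (0.27). For Cyp3a13 it exceeds the change after Wy-14643, and for Cyp3a25 the rise with cyproterone acetate (0.38). The other called treatment changes were wider than the cohort difference of their gene. The calls of Cyp3a44 and Cyp3a25 among cohorts were lost without single livers, Co2 replicate 1, 2 or 3 for Cyp3a44 and Co1 replicate 1, Co3 replicate 1 or 4 or Co4 replicate 3 or 4 for Cyp3a25.

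Ordered by mean, Cyp3a11 ran from cyproterone acetate (14.93) over piperonyl butoxide (14.90), CITCO in hCAR/hPXR mice (14.89), phenobarbital at day 28 (14.82) and at day 56 (14.79) to 1,4-dichlorobenzene (14.77) and Wy-14643 (14.72). Below them came the controls with water at day 56 (14.70), Co1 (14.67), Co3 (14.65), Co5 (14.63), hCAR/hPXR CMC (14.63), water at day 28 (14.61) and corn oil (14.61), then livers labelled pioglitazone (14.60), CITCO in C57BL mice (14.58), livers labelled methapyrilene (14.54), Co4 (14.45) and Co2 (14.40). Of the 18 steps between neighbours, 1 was wider than the larger SD of the pair, that of 0.08 from CITCO in hCAR/hPXR mice to phenobarbital at day 28. The order of Cyp3a44 began with the same 6 groups, from 6.10 with cyproterone acetate to 5.33 with 1,4-dichlorobenzene, and ended with Co2 at 4.49, and only the step of 0.44 below cyproterone acetate was wider than the spread.

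The order of Cyp3a13 was headed by cyproterone acetate (12.24), 0.53 above 1,4-dichlorobenzene (11.71), again the only step wider than the spread, and closed by piperonyl butoxide (10.57), Co1 (10.50) and Co2 (10.26). For Cyp3a25, from cyproterone acetate (14.09) and CITCO in hCAR/hPXR mice (14.04) to Co4 (13.44) and livers labelled methapyrilene (13.30), no step was wider than the spread. Differences between groups made up 82.7% of the variance of Cyp3a11 over the 91 livers, 70.6% of that of Cyp3a44, 69.5% of that of Cyp3a13 and 57% of that of Cyp3a25.

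The Cyp3a changes were set beside a list of 39 genes of drug metabolism known as PXR or CAR targets, of which 33 were measured and none is a Cyp3a gene. The list was chosen with earlier results of these data known, so its counts are a description and not separate support. With phenobarbital 25 of the 33 rose at day 28 and 21 at day 56, 20 rose with 1,4-dichlorobenzene, 14 with piperonyl butoxide, 12 with cyproterone acetate and 6 with CITCO in hCAR/hPXR mice, and none fell. The medians were 1.30, 1.01, 0.76, 0.61, 0.44 and 0.43 in that order, beside −0.01 to 0.02 over all genes. Of all genes 0.967%, 0.566%, 3.83%, 0.808%, 5.32% and 0.0989% were called in the same order. With CITCO in C57BL mice 1 rose, Cyp2c29, where 0.0055% of all genes were called. With Wy-14643 7 rose and 5 fell, in livers labelled pioglitazone 3 rose (Cyp2b10, Cyp2c55 and Cyp2c29), and in livers labelled methapyrilene none was called. The shares of all genes called were 10.6%, 0.022% and 0.181% in that order.

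Near the top of the scale the folds of Cyp3a11 may be understated. Its changes thus do not compare directly in size or order with those of other genes. Cyp2b10, the usual readout of CAR, ordered the treatments otherwise than Cyp3a11 as measured. It rose by 7.93 ± 0.467 with phenobarbital at day 28 and by 6.98 ± 0.467 at day 56, by 6.47 ± 0.467 with 1,4-dichlorobenzene, by 6.06 ± 0.495 in livers labelled pioglitazone, where Cyp3a11 differed by −0.03, by 5.60 ± 0.467 with cyproterone acetate, by 5.26 ± 0.467 with CITCO in hCAR/hPXR mice and by 2.70 ± 0.495 with piperonyl butoxide. Piperonyl butoxide thus combined the widest Cyp3a11 change with the narrowest called change of Cyp2b10. Between cyproterone acetate and 1,4-dichlorobenzene, Cyp2b10 differed by −0.88 ± 0.467 and did not pass (adjusted p = 0.388), while Cyp3a44 and Cyp3a11 were higher with cyproterone acetate. Ces2a, a carboxylesterase known to be induced through PXR, was picked for comparison after its values had been seen. It rose by 1.85 ± 0.121 with cyproterone acetate, 1.61 ± 0.129 with piperonyl butoxide, 1.22 ± 0.121 with phenobarbital at day 28, 0.97 ± 0.121 at day 56, 0.70 ± 0.121 with CITCO in hCAR/hPXR mice and 0.52 ± 0.121 with 1,4-dichlorobenzene, and fell by 0.88 with Wy-14643. It lay at 11.57 to 14.08 in group means, and was higher with cyproterone acetate than with 1,4-dichlorobenzene by 1.33 ± 0.121 (adjusted p = 2.4e-14).

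**Figure D3:**
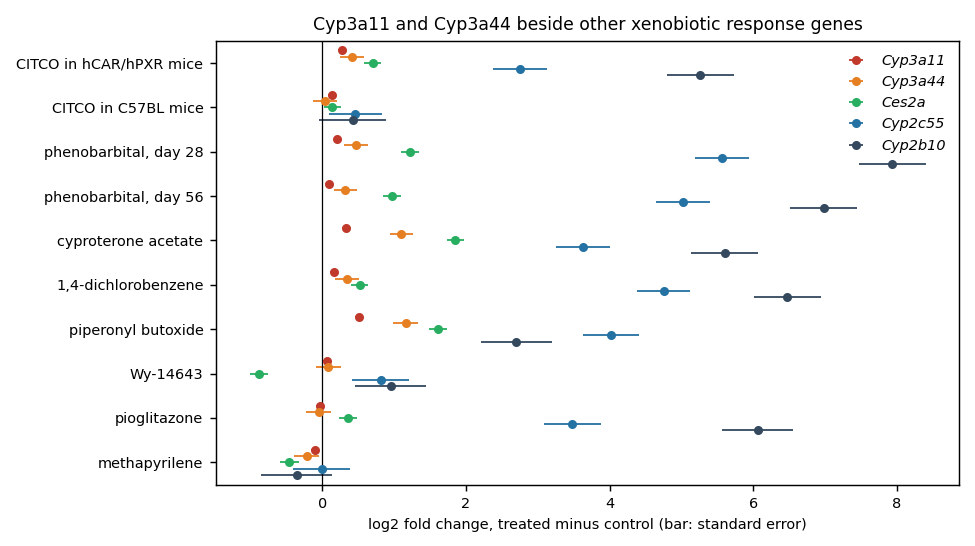
Log2 fold changes, treated minus control, of Cyp3a11 and Cyp3a44 beside Ces2a, Cyp2c55 and Cyp2b10 in the 10 treated groups, with standard errors. Cyp2b10 reaches 7.93 with phenobarbital at day 28, where Cyp3a11 is at 0.21, and Cyp3a44 passes 1 only with cyproterone acetate and piperonyl butoxide. Cyp3a11 lies near the top of the scale, where folds may be understated, so its changes do not compare directly in size with the others.

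Ces2a was the gene, other than the 4, whose 19 group means were most like those of Cyp3a11 (Pearson r 0.82), followed by Hhatl (0.79), 4931406C07Rik (0.79), Itln1 (0.78) and Tgm5 (0.77). Since Ces2a was picked from these same values, its likeness is not separate from its changes given above. For Cyp3a44 the most alike were 1810053B23Rik (0.87), Rassf1 (0.87), Ces2a (0.85), Kcnk1 (0.84) and Cav1 (0.80), for Cyp3a25 BC030500 (0.83), Krtap14 (0.79), Slc22a2 (0.78), Gm17399 (0.75) and 1700020G03Rik (0.75), and for Cyp3a13 Snhg6 (0.92), Psmc3 (0.90), Bsg (0.89), Gskip (0.88) and Morn2 (0.88). These correlations are over 19 groups that share a normalisation, and describe likeness only. The group means of Cyp3a11 and Cyp3a44 correlated with each other at r 0.93, those of Cyp3a11 and Cyp3a25 at 0.74, and those of Cyp3a11 and Cyp3a13 at 0.40. Group means of Cyp2b10 correlated with those of Cyp3a11 at r 0.67 (rho 0.72) and with those of Cyp3a44 at r 0.62 (rho 0.74). The rho of Ces2a was not far from these, at 0.78 with Cyp3a11 and 0.74 with Cyp3a44.

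Livers of the same group also differed together in some of these genes. After each group mean was subtracted, Cyp3a11 and Cyp3a44 correlated over the 91 livers with r 0.57 and rho 0.57, with permutation p-values of 1e-05 for both, the smallest 100000 permutations within groups can give, and adjusted values of 5e-05 over 10 relations. The correlation was 0.56 without the 2 livers farthest from the median and had the same sign in 18 of 19 groups. Cyp3a44 gave a dim signal and Cyp3a11 a bright one. Whether their probe sets share signal was not tested, nor was its part in this correlation or in that of their group means. Cyp3a11 did not pass with Cyp3a25 (r 0.25, permutation p = 0.057, adjusted 0.14) or with Cyp3a13 (r −0.12, permutation p = 0.4, adjusted 0.57).

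Cyp3a13 instead went with the acute phase genes, which hepatocytes make more of in inflammation. Its deviations correlated with the mean of 28 acute phase genes at r 0.70 and rho 0.67, both with a permutation p of 1e-05 (adjusted 5e-05), at 0.65 without the 2 farthest livers and with the same sign in 17 of 19 groups. Cyp3a25 went the opposite way, at r −0.34 (permutation p = 0.011, adjusted 0.036) and rho −0.34 (p = 0.0056, adjusted 0.019), with r −0.42 without the 2 farthest livers and the same sign in 14 of 19 groups. Cyp3a11 had r −0.13 and Cyp3a44 0.09, neither passing by permutation. The genes whose deviations were most like those of Cyp3a13 were Il13ra1 (0.80), Serpina3n (0.76), an acute phase gene, and Cd302 (0.75). Those most like Cyp3a11 were Gsta2 (0.53), 9130409I23Rik (0.53) and Efnb2 (0.46), those most like Cyp3a25 were Cnst (0.67), Ganc (0.66) and B830008H07Rik (0.65), and those most like Cyp3a44 were C1d (0.60), Rtraf (0.57) and Fut2 (0.56).

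**Figure D4:**
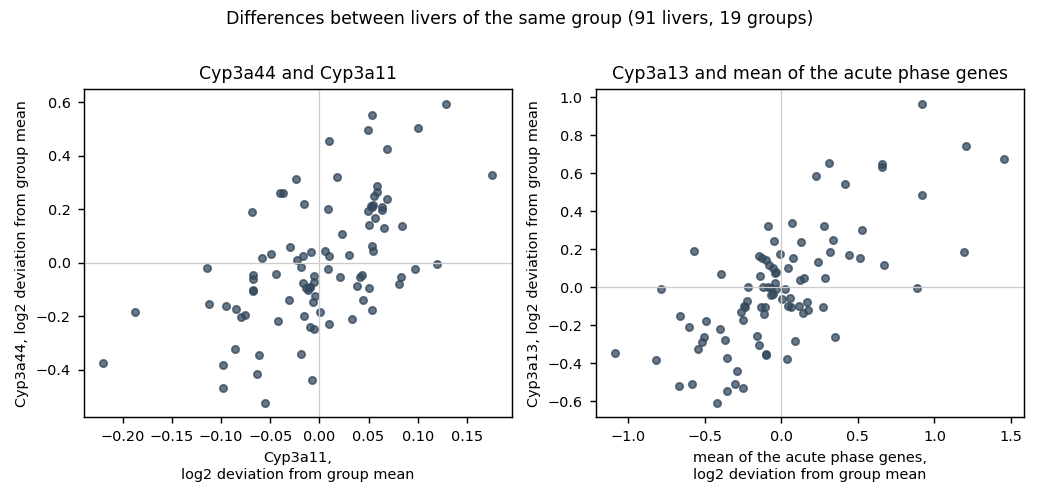
Deviations from the group mean on the log2 scale in 91 livers of 19 groups, for Cyp3a44 against Cyp3a11 (left, r 0.57) and for Cyp3a13 against the mean of 28 acute phase genes (right, r 0.70). Each point is 1 liver, and both clouds run upward to the right.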

How the data were processed

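Biotin-labelled RNA of each liver was hybridised to 1 Affymetrix array, per the labels' protocols. The authors deposited log2 values, 1 per probe set and array, and the submitters' processing notes name RMA. That method subtracts background and gives all arrays 1 distribution, so that a change of total RNA per liver is not seen. Versions are not given in the sources used here. Values ran from 2.61 to 15.34 and array medians from 5.18 to 5.36. Platform annotation gave 1 symbol for 34945 probe sets, several for 932 and none for 9160. Each of 18193 genes was represented by its brightest probe set (highest mean) among those with 1 symbol. limma 3.58.1 in R 4.3.3 fitted 1 mean per group to all 91 arrays (72 residual degrees of freedom), with a mean-variance trend, two-sided tests and Benjamini-Hochberg adjustment over 18193 genes per comparison, and the threshold was an adjusted p of 0.05. Precision is limited by the 4 or 5 arrays of a group. Mice were assigned at random per the labels, and replicates were taken as separate mice. Replicate numbers did not pair them: of 46 same-numbered pairs, 11 had deviations correlated above 0.1, and in no comparison did all. The procedure was tested on simulated data with independent noise for each gene and no differences between cohorts. That test therefore says nothing about calls where cohorts differ, as these did. The members and gene lists were chosen with earlier results of these data known. Named in the text are the 4 genes, other measured Cyp3a genes, Cyp2b10, Nr1i2, Nr1i3, the 5 genes most alike in group means and 3 in deviations, and up to 4 genes of a described list with the largest called change. Fabp4, Cidea, Cidec, Cd36 and Plin4 are exceptions chosen after their values were seen, and so is Ces2a where it serves as a comparison. Promoters are from RefSeq (GRCm38.p6), and all 4 genes matched. Alternatives tried are given in the closing section.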

Additional observations from a re-analysis of the deposited data

Results flagged for a closer look

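Of 76 sets of one gene in one group, 3 held a liver apart from the rest of its group, by a gap to the nearest liver that took up most of the group's range. Chance alone gives about 1 such set in 20. Cyp3a13 was 12.0 in replicate 2 of the livers labelled methapyrilene, against 10.97 to 11.14 in the other 4 livers with that label (gap over range 0.835). That liver also had an acute phase mean 1.207 above its group mean on the log2 scale, and the part of inflammation in its Cyp3a13 value was not tested. Cyp3a25 was 13.43 in piperonyl butoxide replicate 3, where the other 3 livers had 13.78 to 13.82 (0.897). Cyp3a11 was 14.72 in Co1 replicate 4, where the other 3 had 14.65 or 14.66 (0.857), a gap of 0.06 that stands out only because those 3 were so close. None of these livers decides a call in the comparisons above.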

How the results depend on the processing

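The rises of Cyp3a11 and Cyp3a44 with cyproterone acetate and piperonyl butoxide and of Cyp3a13 with Wy-14643 held without any 1 liver. Values here are how many of the 4 genes were called. With only the groups of the comparison in the fit, the counts were 0 for CITCO in hCAR/hPXR mice, 2 for phenobarbital at day 28, 1 for piperonyl butoxide, 0 for livers labelled methapyrilene and 0 for cyproterone acetate against 1,4-dichlorobenzene. The last comparison gave 1 without a mean-variance trend, with a robust prior, after quantile normalisation, with every probe set tested, and among genes above the median level. Phenobarbital at day 28 gave 0 after array medians were subtracted and 0 after quantile normalisation, but 3 with array weights. 1,4-Dichlorobenzene gave 1 after median subtraction and 1 among genes above the median level, where piperonyl butoxide gave 1 because the dim Cyp3a44 is left out. Array weights gave 1 for hCAR/hPXR against Co4 and 2 against all CMC cohorts. Leaving out single livers gave 0 to 1 for CITCO in hCAR/hPXR mice, phenobarbital at day 28, 1,4-dichlorobenzene, livers labelled methapyrilene and hCAR/hPXR against Co4, 2 to 4 for cyproterone acetate, 1 to 2 for cyproterone acetate against 1,4-dichlorobenzene and 3 to 4 among cohorts. The replicate block gave 2 and not 3 for cyproterone acetate, where Cyp3a25 (0.38) had an adjusted p of 0.056, and changed no other call. Cyp3a25 was not called with cyproterone acetate either with only those groups in the fit, without the trend, after quantile normalisation, with every probe set tested or with the mean of a gene's probe sets. Uncalled differences that changed sign without single livers were Cyp3a13 in the strain difference of CITCO (−0.03 to 0.29), between hCAR/hPXR and Co4 (−0.03 to 0.29), with 1,4-dichlorobenzene (−0.03 to 0.11), with piperonyl butoxide (−0.01 to 0.48) and in livers labelled methapyrilene (−0.04 to 0.26). Cyp3a25 did so with CITCO in C57BL mice (−0.04 to 0.20), piperonyl butoxide (−0.03 to 0.12), Wy-14643 (−0.08 to 0.08, and 0 after median subtraction), Wy-14643 against the livers labelled pioglitazone (−0.08 to 0.24) and in the livers labelled pioglitazone alone (−0.25 to 0.07). Cyp3a44 did so with CITCO in C57BL mice (−0.01 to 0.12) and in livers labelled pioglitazone (−0.12 to 0.03). The causes were not tested.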

Other observations

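Of 13 measured genes of electron supply and haem synthesis, 3 rose with 1,4-dichlorobenzene (Fdx1, Pgrmc1 and Cyb5a), 2 with piperonyl butoxide (Cyb5a and Pgrmc1) and 1 with phenobarbital at day 28 (Cyb5a), where 3.83%, 0.808% and 0.967% of all genes were called in that order. With Wy-14643, where 10.6% of all genes were called, 2 rose (Alas1 and Urod) and Cyb5a fell. Cyb5a, the cytochrome b5 that passes electrons to Cyp3a enzymes, was higher by 0.28 ± 0.0544 with piperonyl butoxide (13.94 against 13.66, adjusted p = 0.00197), by 0.25 ± 0.0513 with 1,4-dichlorobenzene and by 0.19 ± 0.0513 with phenobarbital at day 28 (adjusted p = 0.0492). It was lower with Wy-14643 (−0.21 ± 0.0544, 13.64 against 13.85, adjusted p = 0.00614). With cyproterone acetate 1 of the 13 rose and 2 fell, where 5.32% of all genes were called, and Cyb5a was not among them. Alas1, which makes the rate-limiting step of haem synthesis, was lower with cyproterone acetate than with 1,4-dichlorobenzene (10.61 against 12.49, −1.88 ± 0.441, adjusted p = 0.00356), where Cyp3a44 was higher.

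Of 19 measured genes of PXR, CAR, their partners and coregulators, none rose with cyproterone acetate, and 4 fell: Foxa3 (9.22 against 9.91), Ncoa3 (6.88 against 7.55), Cebpb (11.31 against 11.97) and Hnf4a (12.39 against 12.86). There 5.32% of all genes were called. With 1,4-dichlorobenzene 5 fell, among them Foxa3, Cebpb, Rxra and Hnf4a, against the same corn oil livers, in a comparison with 3.83% of all genes called. Foxa3 also fell with phenobarbital at day 28, by −1.22 ± 0.219 (8.53 against 9.75, adjusted p = 0.000186), where 0.967% of all genes were called. With piperonyl butoxide, where Cyp3a11 and Cyp3a44 rose, none of the 19 was called, and 0.808% of all genes were.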
